A study of Homo sapiens with 8 samples.

Results

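To describe what depletion of PABPC4 does to poly(A) site usage in HNRNPC-depleted cells, HNRNPC/PABPC4 double knockdown (KD) cells were set against HNRNPC KD cells. The unit was a pair of poly(A) sites of 1 gene, a proximal site and a distal site. A pair was taken where it was listed in both tables, and its value was the double KD value minus the HNRNPC KD value. This gave 5170 pairs of 2843 genes, out of 7615 pairs of 3656 genes in the whole series. Of the genes, 2075 had 1 shared pair. The cells were of the human breast cancer line MDA-MB-231 (triple-negative) and expressed dCas9-KRAB, a dead Cas9 fused to a repressor (CRISPR interference), after sorting for a fluorescent marker. The 8 samples formed 4 groups of 2: control cells with control guides (sgCTRL), HNRNPC KD cells with a control guide beside the guide against HNRNPC, PABPC4 KD cells of the same kind, and double KD cells with guides against both genes. RNA 3′ ends were read by QuantSeq REV, which primes complementary DNA synthesis with oligo(dT).

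The measurement is logAPAR: the ratio of proximal to distal usage in a KD is divided by that in control, and the natural log is taken. Both tables used the same control, which cancels in their difference, so the difference compares 2 double KD with 2 HNRNPC KD libraries. A negative difference is a shift to the distal site, which lengthens the 3′ UTR where both sites lie in it, and a positive one is a shift to the proximal site. Only pooled comparisons were analysed here, with no value per library, so neither an SD nor a replicate check can be given and every p-value covers counting error alone. The tables list no pair for either target (0 pairs each of HNRNPC and PABPC4), so their depletion was not checked. At 622 genes with 3 or more sites the ratios and p-values were solved for the reads behind each site, called reconstructed reads below; their median per site was 10.4 in control, 9.63 in HNRNPC KD and 11.4 in double KD, 2 libraries summed. The standard error of a difference had a median of 1.05, at which a pair needed a size of 2.72 to reach p 0.01.

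Cleavage and polyadenylation ends an mRNA downstream of a poly(A) signal, most often AATAAA or ATTAAA in DNA letters, and many genes hold several such sites. PABPC4, by name a cytoplasmic poly(A)-binding protein, sits on poly(A) tails, where this protein family takes part in mRNA stability and translation. The study describes PABPC4 as shuttling between nucleus and cytoplasm, and as acting with HNRNPC in the choice of poly(A) sites. HNRNPC is a nuclear protein that binds runs of U, including those of Alu repeats transcribed in the antisense direction. Alu elements, abundant repeats of primate genomes, are read in the sense direction as a stretch that ends in an A-rich tail.

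The sequences at the sites are shown first because sites that lost and gained usage differed in them, mainly in shifts to the distal site. The last 30 bases of transcripts that name a site, read from hg38 at their ends in Gencode release 44, are given 5′ to 3′ for pairs described below. Capitals mark a poly(A) signal (AATAAA or ATTAAA). In shifts to the distal site, the first sequence is of a proximal site that lost usage in double KD relative to HNRNPC KD and has no signal in the bases shown.
ECE1 proximal, chr1:21218584-21218613, minus strand: ctccgtcccaaaaaaaagaaaagagaaaca
The next are distal sites that gained usage, each with a signal, as 32 of the 34 placed ones had. Over all pairs a signal stood at 81.7% of placed distal and 33.5% of placed proximal sites. Part of the contrast in shifts to the distal site is therefore one between proximal and distal sites in general, and the remainder was not tested.
ECE1 distal, chr1:21217247-21217276, minus strand: taatggaAATAAAatacttgtacggagggc
KIAA0319L distal, chr1:35433492-35433521, minus strand: tgggatgATTAAAcatggtatttaactgtg
SRSF10 distal, chr1:23969083-23969112, minus strand: aaacatgctatAATAAAaacaaaatgaagg
PDLIM5 distal, chr4:94668198-94668227, plus strand: taAATAAAtgactgcattgttgtaaatgag
In shifts to the proximal site, a signal stood at 4 of 16 placed distal sites that lost usage. It stood at 2 of 7 placed proximal sites that gained usage, so the division was not seen there. Distal sites that lost usage still had a signal less often than the 81.7% of all placed distal sites, which was not tested. The last sequences are a distal site that lost usage and is among the 4 with a signal, and a proximal site that gained usage. The proximal one has no signal in the bases shown. The distal one is of RPL23A, whose reads are of uncertain assignment because near-identical copies lie elsewhere in the genome.
RPL23A distal, chr17:28724330-28724359, plus strand: ccAATAAAggacaaggacttcagaggagta
ISY1 proximal, chr3:129129791-129129820, minus strand: tcttattttgacttgcactgccattttgag

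Of the 5170 pairs, 74 pairs of 71 genes passed p 0.01 with an upper-bound error, 1.43% of those tested. If no pair had changed and the p-values were exact, 51.7 pairs would pass. Shifts to the distal site made up 49 of them (0.948% of pairs) and shifts to the proximal site 25 (0.484%). The distal share among called pairs, those past p 0.01, was 66.2% (Wilson 95% interval 54.9 to 76.0%, counting pairs as independent), against 51.6% negative differences over all pairs. At an adjusted p of 0.05 (Benjamini-Hochberg over all pairs) 22 pairs remained (0.426%), 13 negative and 9 positive. Called pairs had sizes of 0.515 to 2.50 with a median of 1.15, a 3.16-fold change in the ratio of the sites. Over all pairs the median difference was −0.0222, with quartiles of −0.478 and 0.436. The last pair inside the threshold had p 0.00900 and the first outside it p 0.0101. The error counts the noise of the shared control although it cancels, and is therefore too wide. The p-values are thus not exact, and 51.7 is no matched benchmark for the 74. At 2405 pairs with reconstructed reads, an error without the control passed 76 pairs (3.16%), 48 negative and 28 positive, where the upper bound passed 28 of the same pairs, each of them among the 76. There, 28 pairs of 24 genes passed an adjusted p of 0.05 (1.16%). The upper-bound calls came from well-read sites: 69 of the 74 lay among the 1293 pairs with the smallest errors, in which 5.34% were called.

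**Figure D1:**
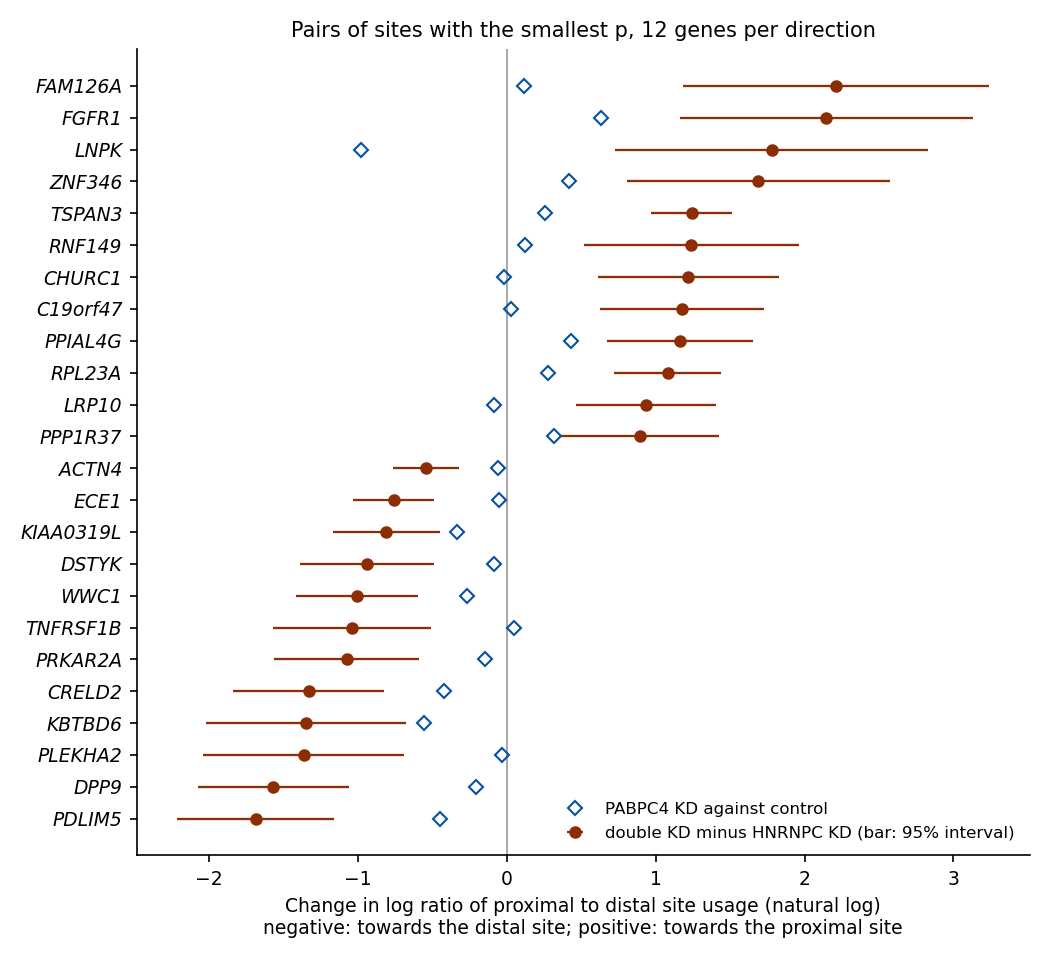
Difference between double KD and HNRNPC KD (filled circles, bars are 95% upper-bound intervals) and logAPAR of PABPC4 KD against control (open diamonds), natural log, for the 12 genes per direction with the smallest p; negative values are shifts to the distal site. The differences run from −1.69 (PDLIM5) to 2.21 (FAM126A), and the open diamonds lie closer to 0 than the circles for each gene.

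Among shifts to the distal site, PDLIM5 had the smallest p. PDLIM5 is a protein-coding gene (ENSG00000163110) on the plus strand of chromosome 4 (94451857 to 94668227, hg38) and encodes a PDZ and LIM domain protein that binds the actin crosslinker α-actinin. Its logAPAR was −1.40 in double KD and 0.287 in HNRNPC KD, a difference of −1.69 (SE 0.268, p 2.82e-10, adjusted p 7.28e-07). The pair runs from position 95586055 of chromosome 4, in the unnamed build of the tables, to the end of a protein-coding transcript at 94668227 on hg38. Its proximal site held 1445 reconstructed reads in control, 1153 after HNRNPC KD, 1254 after PABPC4 KD and 396 after double KD, whereas the distal site had 68.3, 40.9, 92.8 and 76.0 reads in the same order. The double KD thus stood apart from the other 3 groups at the proximal site, with 0.343 times the reads of HNRNPC KD. The proximal share of the pair was 96.6% in HNRNPC KD and 83.9% in double KD. ACTN4 (ENSG00000130402, chromosome 19, 38647649 to 38731589), which encodes α-actinin 4 itself, shifted by −0.544 (SE 0.114, p 1.90e-06, adjusted p 0.00123) between sites 429 nt apart. There the proximal share was 17.9% in control, 19.4% after HNRNPC KD, 17.0% after PABPC4 KD and 12.2% after double KD, so that double KD was the lowest of the 4.

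DPP9 (ENSG00000142002, chromosome 19, 4674341 to 4724673), a cytosolic dipeptidyl peptidase, differed by −1.57 (SE 0.258, p 1.20e-09). ECE1 (ENSG00000117298, chromosome 1, 21217247 to 21345572), which activates endothelins, differed by −0.760 (SE 0.139, p 4.20e-08) between 2 protein-coding ends 1337 nt apart. At ECE1 the proximal end had 314 reads in control, 299 after HNRNPC KD, 313 after PABPC4 KD and 139 after double KD, while the distal end had 1636, 1779, 1713 and 1776. ECE1 reads thus differed at the proximal end, which has no poly(A) signal in its last 50 bases and hardly at the distal end, which has a signal. CRELD2 (ENSG00000184164, chromosome 22, 49918167 to 49927540), a protein of the endoplasmic reticulum, shifted by −1.33 (SE 0.259, p 2.71e-07). WWC1, a regulator upstream of the Hippo pathway, shifted by −1.01 (SE 0.209), and KIAA0319L, a membrane protein, by −0.809 (SE 0.184, p 1.09e-05) between ends 613 nt apart. PRKAR2A (ENSG00000114302), a regulatory subunit of protein kinase A, shifted by −1.08 (95% interval −1.57 to −0.588, p 1.60e-05). Its proximal end had 114 reads after HNRNPC KD and 46.4 after double KD, against 180 and 214 at the more distal site of the pair. A second PRKAR2A pair, between the same proximal end and the end of another transcript, was also called (−0.988, p 0.00287). DSTYK (−0.941), PLEKHA2 (−1.37), KBTBD6 (−1.35), a kelch adaptor of a ubiquitin ligase, and TNFRSF1B (−1.04), a receptor for tumour necrosis factor, complete the 12 genes, with adjusted p-values of 0.0151 to 0.0331. For TNFRSF1B logAPAR was 0.710 in HNRNPC KD and −0.327 in double KD, so its difference lay more in HNRNPC KD.

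Among shifts to the proximal site, TSPAN3 had the smallest p of all pairs. TSPAN3 (ENSG00000140391, chromosome 15, 77041404 to 77083984, minus strand), a tetraspanin membrane protein, had a logAPAR of 1.34 in double KD and 0.0969 in HNRNPC KD, a difference of 1.24 (95% interval 0.966 to 1.52, p 9.17e-19, adjusted p 4.74e-15). Its reads could be solved from the PABPC4 KD and double KD tables: the proximal site had 430 in control, 492 after PABPC4 KD and 491 after double KD, and the distal site 618, 546 and 185. So the distal end was the one with fewer reads in double KD. RPL23A (ENSG00000198242, chromosome 17, 28719985 to 28724359), a protein of the large ribosomal subunit, shifted by 1.08 (SE 0.182, p 3.27e-09), and PPIAL4G, a cyclophilin A-like gene, by 1.16 (SE 0.249, p 3.17e-06). Both have near-identical copies elsewhere in the genome, so the assignment of their reads is uncertain. FGFR1 (chromosome 8, 38400215 to 38468834), a receptor tyrosine kinase, shifted by 2.15 (SE 0.502, p 1.89e-05) between ends 643 nt apart. FAM126A (ENSG00000122591, now HYCC1, chromosome 7, 22889371 to 23014130) encodes hyccin, a subunit of a lipid kinase complex, and shifted by 2.21 (SE 0.525, p 2.58e-05). Its proximal site had 16.5 reads in control, 9.38 after HNRNPC KD, 16.7 after PABPC4 KD and 29.2 after double KD, and its distal site 457, 411, 415 and 140. The proximal share of FAM126A was 2.23% after HNRNPC KD and 17.2% after double KD. CHURC1, a zinc-binding protein, shifted by 1.22 (SE 0.312, p 9.08e-05), with distal reads of 583 in control, 475 after HNRNPC KD, 478 after PABPC4 KD and 152 after double KD. LRP10, of the low-density lipoprotein receptor family, shifted by 0.932 (SE 0.240, p 0.000105), with distal reads of 732 and 389. C19orf47 (1.17), ZNF346 (1.69), RNF149 (1.24), LNPK (1.78) and PPP1R37 (0.892) complete this group, the last 3 without passing an adjusted p of 0.05 (0.139, 0.146 and 0.157).

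The reads showed which of the sites moved. Over all solved pairs double KD had a median of 1.18 times the reads of HNRNPC KD at proximal and 1.19 times at distal sites. At 19 called negative pairs with solved reads the median was 0.467 at the proximal and 1.24 at the distal site, and 18 of the 19 had fewer proximal reads. At 9 called positive pairs the median was 1.47 at the proximal and 0.379 at the distal site, and 9 of the 9 had fewer distal reads. Since the difference chose these pairs, this describes them and is no test. In both directions the site that lost share was usually one with fewer reads. Gene totals differed as well: of 318 genes with at least 50 reads in each group, the median ratio of double KD to HNRNPC KD was 1.14, with a 5th percentile of 0.562. It was 0.400 for PDLIM5, 0.411 for CHURC1, 0.426 for FAM126A and 0.603 for LRP10, but 0.923 for ECE1, 1.19 for SRSF10 and 1.41 for ACTN4. The groups of genes called in either direction overlapped, at 0.400 to 1.41 for 15 negative and 0.411 to 1.27 for 9 positive genes. Their medians of 0.852 and 0.670 were below the 1.14 of all genes, with 11 of 15 and 7 of 9 genes under it. These totals sum the same site reads, and they include the site that lost usage. They are therefore not independent of the shift by which these genes were called. Total depth per library was not available to scale them.

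**Figure D2:**
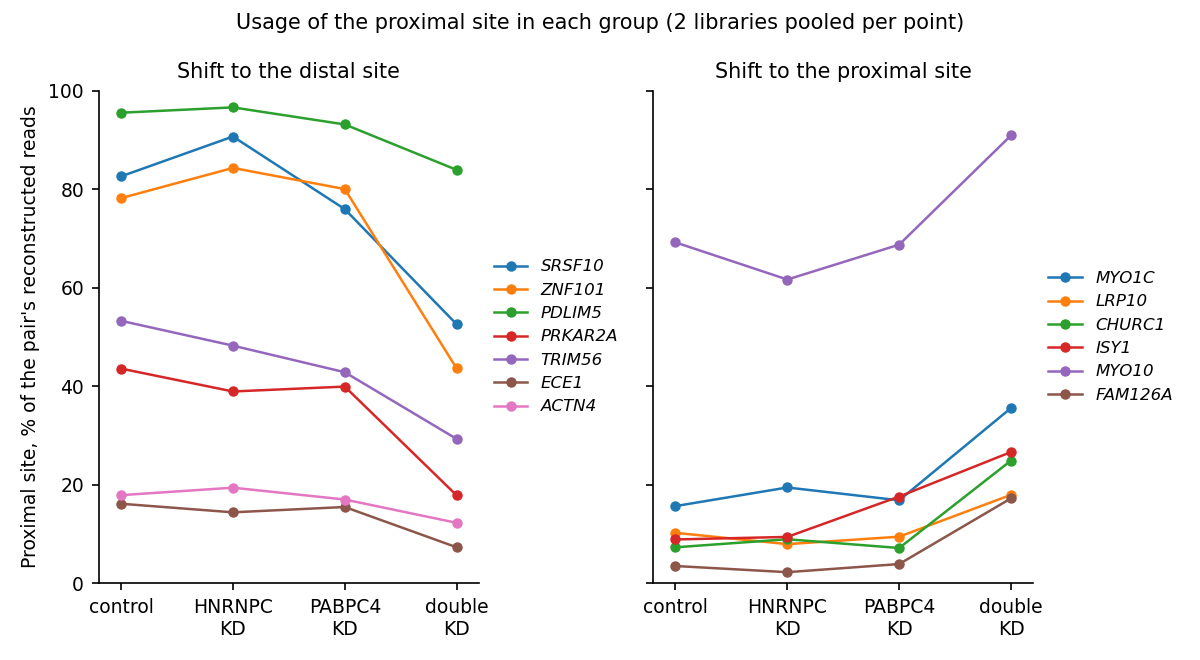
Proximal site as a percentage of the reconstructed reads of its pair in control, HNRNPC KD, PABPC4 KD and double KD, for the named pairs past p 0.01 whose reads could be solved in all groups; each point pools 2 libraries and has no error bar. For each pair drawn the double KD share is the lowest of the 4 groups in shifts to the distal site and the highest in shifts to the proximal site, for example at 83.9% against 93.1% to 96.6% for PDLIM5 and at 17.2% against 2.23% to 3.88% for FAM126A.

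The sequence at the sites was then examined wherever a transcript name could be placed, which held for 3219 of the 6694 sites. The rule did not use sequence. A poly(A) signal (AATAAA or ATTAAA within the last 50 bases) stood at 68.5% of placed sites, at 33.5% of proximal and 81.7% of distal ones. Of the sites that lost usage in called pairs, 35 could be placed and 4 had a signal (11.4%), whereas 34 of 41 placed sites that gained usage had one (82.9%). Split by direction, 0 of 19 proximal sites that lost usage and 4 of 16 distal sites that lost usage had a signal, against 32 of 34 distal and 2 of 7 proximal sites that gained it. The pooled contrast thus came from the shifts to the distal site. In shifts to the proximal site, the share was 4 of 16 at sites that lost usage and 2 of 7 at sites that gained it, with no such contrast, although distal sites that lost usage had a signal less often than distal sites as a whole, a difference that was not tested. A stretch rich in A (6 A in a row, or 12 A in 20 bases, within 30 bases before to 20 after the end) stood at 28 of the 35 sites that lost usage (80.0%), at 11 of the 41 that gained it (26.8%) and at 36.9% of all placed sites. Over all placed sites, an A-rich stretch stood at 55.9% of proximal and 29.9% of distal ones. Of sites that lost usage, 17 of 19 proximal and 11 of 16 distal ones had it. Of sites that gained usage, 9 of 34 distal and 2 of 7 proximal ones had it. Over sites with a mean of at least 20 reads, the median ratio of double KD to HNRNPC KD was 1.09 with the stretch and 1.19 without. Oligo(dT) can anneal to such a stretch inside a transcript, and the part of this in the result was not tested. A run of at least 5 T in the last 100 bases was held by 2 of the 35 (5.71%), 17 of the 41 (41.5%) and 34.2% of all.

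The letters AGCCTGGG or AGCCTGAG, which stand near the end of Alu elements, were searched next. They stood in the last 100 bases of 130 of the 3219 placed sites (4.04%), at 18 of the 35 sites that lost usage (51.4%) and at 1 of the 41 that gained it (2.44%). On the other strand (CCCAGGCT or CTCAGGCT) they were found at 4 placed sites in all (0.124%) and at none of the 76 called ones. Of the 20 called pairs with the letters at a placed site, 19 lost usage at the site that holds them. These pairs belong to 19 genes, among them TSPAN3, ECE1, CRELD2, KIAA0319L, FGFR1, PLEKHA2, LRP10, IVD, SRSF10, PPP1R37, ORAI1, PLEKHB2, WIPF2, LARP6, TUBD1, TEP1, METTL2A and KDM4B. MYO1C, an unconventional myosin, was the exception: it shifted to the proximal end with the letters by 0.828 (SE 0.273, p 0.00241), from 91.4 to 191 reads there, with 44.9 in control and 49.9 after PABPC4 KD.

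All pairs with the letters were then taken, called ones included. With the letters at the proximal site, 100 pairs had a median difference of −0.445, 77.0% of them were negative and 13.0% were called, 12 negative and 1 positive. With the letters at the distal site, 81 pairs had a median of 0.756, 27.2% were negative, and 8.64% were called, 0 negative and 7 positive. Pairs without the letters at a placed proximal site had a median of −0.00652, and those without them at a placed distal site −0.0424. In reads, 23 placed sites with the letters and a mean of at least 20 reads had a median ratio of double KD to HNRNPC KD of 0.509 (quartiles 0.397 and 0.909, range 0.307 to 2.09), and 18 of the 23 were below 1. The other 302 sites had a median of 1.17, with 22.8% below 1. Since called sites led to the choice of letters, the same values were taken over genes without a called pair. There, 74 pairs with the letters at the proximal site had a median difference of −0.304 (74.3% negative), against −0.00748 for 1259 pairs without. With the letters at the distal site, 67 such pairs had a median of 0.599 (29.9% negative), against −0.0343 for 2982 without. Of 16 sites with the letters in these genes, 12 had fewer reads in double KD, with a median ratio of 0.492, against 1.18 for 281 others. Between HNRNPC KD and control the sites had medians of 0.910 with and 0.932 without the letters, and 69.6% and 56.6% of them were below 1. The logAPAR of HNRNPC KD had a median of −0.117 with the letters at the proximal site (0.0113 without) and 0.0901 with them at the distal site (−0.0119 without). Between PABPC4 KD and control, which share no library with the double KD and HNRNPC KD groups, the medians were 0.902 with the letters (19 sites) and 1.04 without. In logAPAR of PABPC4 KD, pairs with the letters at the proximal site had a median of −0.0898 (0.0189 without) and those with them at the distal site 0.228 (−0.00797 without). Over genes without a called pair these medians of PABPC4 KD were 0.0190 and 0.201, so that the sign at proximal sites rested on the called genes. The letters were chosen after the sequences of called sites had been read, sites of 1 gene are not independent, and a match does not place a site in an annotated repeat, which was not examined.

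**Figure D3:**
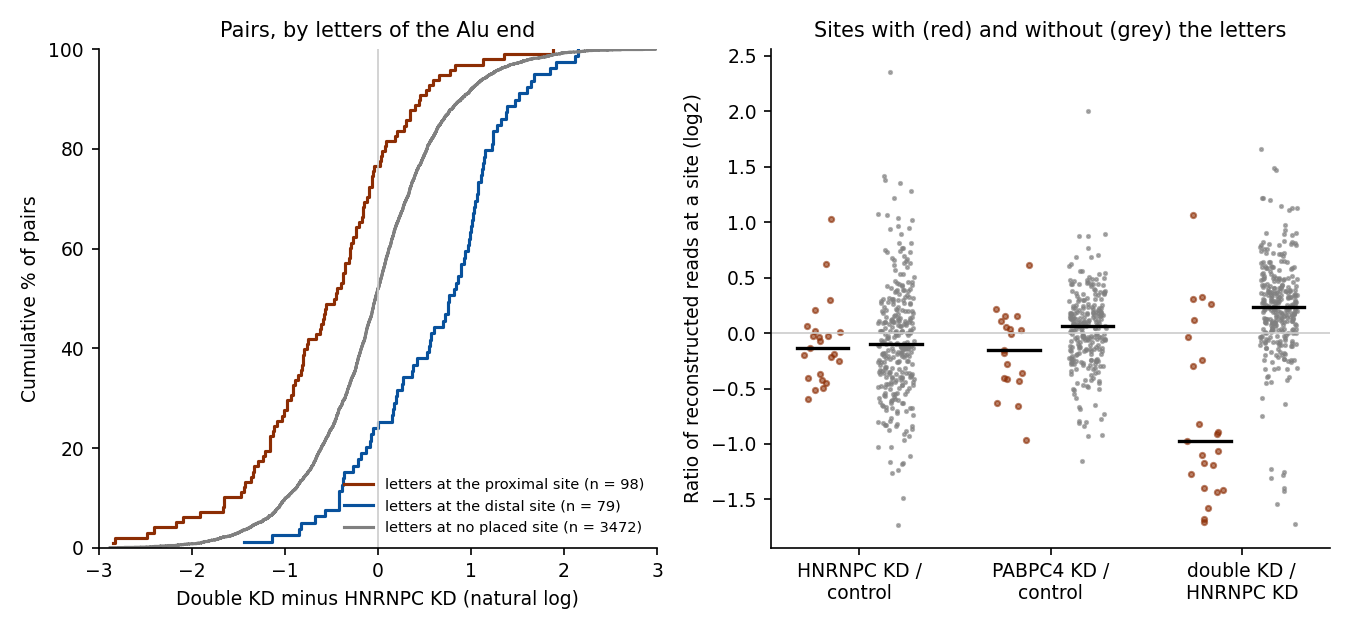
Left, cumulative percentage of pairs by the difference between double KD and HNRNPC KD (natural log, shown from −3 to 3), for pairs with AGCCTGGG or AGCCTGAG in the last 100 bases of the proximal site, of the distal site, or of neither placed site. Right, ratio of reconstructed reads per site (log2) in 3 comparisons, for sites with (red) and without (grey) the letters, bars are medians; sites with the letters lie lower in double KD against HNRNPC KD (median ratio 0.509 against 1.17) while the medians in HNRNPC KD against control were 0.910 and 0.932.

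Where both sites could be placed, the state of both signals was compared. Pairs whose proximal site lacked a signal and whose distal site had one numbered 507, with a median difference of −0.122, and 17 negative and 1 positive pair were called (3.55%). With a signal at both sites, 220 pairs had a median of 0.0658 and 0 were called, also 0 among the 120 with a standard error of at most 1. With a signal at neither, 112 pairs had a median of 0.215, and 4 positive and 0 negative pairs were called (3.57%). With a signal at the proximal site alone, 1 of 69 was called, a positive one. Among pairs with a standard error of at most 1, the median was −0.126 with a signal at the distal site alone. It was −0.0200 with a signal at both sites, 0.0593 at neither and −0.108 at the proximal site alone. The median for both sites thus changed sign under this limit, and that for neither became smaller. Of the naming types, pairs of 2 transcript-named sites were called at 2.34% (27 of 1152) and pairs of 2 position-named sites at 0.874% (10 of 1144). Pairs of 2 placed transcript ends with at least 1 retained-intron transcript were called at 3.49% (8 of 229), those with 2 protein-coding transcripts at 2.18% (8 of 367). Pairs of placed transcript ends 1000 nt or more apart were called at 1.96% (14 of 715, 13 negative and 1 positive) and closer ones at 4.66% (9 of 193, 4 negative and 5 positive). These classes also differ in median standard error. It was 0.937 for transcript-named and 1.17 for position-named pairs, and 0.934 for the more distant and 0.831 for the closer ends. For pairs with a retained intron it was 0.941, and with 2 protein-coding transcripts 0.895. The part of error in these call rates was not tested.

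Genes were next grouped by function in 19 lists, in which a called gene is one with at least 1 called pair. The lists are patterns of gene symbols and do not hold every gene of a function. Calls are at p 0.01 without adjustment. An adjusted p of 0.05 was passed by PDLIM5, ACTN4, RPL23A, PRKAR2A, FGFR1, ORAI2 and ZNF346. It was missed, for example, by SRSF10 (0.0708 and 0.372), MYO1C (0.277), EIF2AK2 (0.333), ISY1 (0.425) and MYO10 (0.561). Over all genes 2.50% were called (71 of 2843), and 47 of the 71 belonged to no list. Factors that act on the mRNA 3′ end or its tail were not among the called genes. Of 9 cleavage and polyadenylation factors, 21 factors of tail binding, deadenylation and decay, 13 of mRNA export and 6 of miRNA silencing, 0 were called by the upper bound and 0 by the error from reconstructed reads, which covered 45 of their 84 pairs. The pairs of smallest p in these lists were CSTF1 (1.86, SE 1.27, p 0.142), a subunit of the cleavage stimulation factor, BTG1 (−0.328, interval −0.602 to −0.0539, p 0.0190), an antiproliferative partner of deadenylases, THOC2 (−0.806, SE 0.574, p 0.160), an export factor, and AGO2 (−0.579, SE 0.508, p 0.254), the miRNA effector. The intervals of CSTF1 (−0.622 to 4.35) and AGO2 (−1.57 to 0.416) leave room for large shifts.

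Of 61 splicing factors and RNA helicases 1 was called (1.64%), SRSF10, a serine/arginine-rich splicing regulator. SRSF10 (ENSG00000188529, chromosome 1, 23964347 to 23980927) had 2 called pairs, both from the end of a retained-intron transcript to more distal ends. The larger was −2.17 (SE 0.604, p 0.000329), with 71.7 reads in control, 72.4 after HNRNPC KD, 74.3 after PABPC4 KD and 36.9 after double KD at the proximal end, and 15.1, 7.46, 23.6 and 33.3 at the distal one. The proximal end of SRSF10 was thus near even in 3 groups and low in double KD. ISY1, a spliceosome component outside that list, shifted to the proximal of 2 ends 417 nt apart (1.25, SE 0.446, p 0.00494). Of 20 cytosolic ribosomal proteins 1 was called, RPL23A. Of 30 translation factors and tRNA synthetases 1 was called, EIF2AK2, the double-stranded RNA-activated kinase PKR (−1.42, SE 0.488, p 0.00354), which is also 1 of 2 called genes among 56 chaperones and quality-control genes. The other was LNPK, which shapes junctions of the endoplasmic reticulum. Its proximal site had 15.4 reads in double KD, too few for a firm value.

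The list with the highest share was that of the cytoskeleton, adhesion and matrix, in which 4 of 64 genes were called (6.25%). It held PDLIM5 and ACTN4, both negative, and the unconventional myosins MYO1C and MYO10 (1.83, SE 0.679, p 0.00716), both positive. The MYO10 pair had 4.95 distal reads in double KD. Of 100 zinc finger transcription factors 4 were called, ZNF346 positive and ZNF526 (−1.12), ZSCAN18 (−0.690) and ZNF101 (−1.94) negative. Of 78 carriers, pumps and channels 3 were called (3.85%): ORAI1 (0.973, SE 0.300, p 0.00117) and ORAI2 (−1.14, SE 0.299, p 0.000142), subunits of the store-operated calcium channel, and SLC2A3 (−0.720), a glucose transporter. ORAI1 and ORAI2 thus moved in opposite directions. ORAI1 lost usage at a distal end with the letters, and ORAI2 had proximal reads of 200 in control, 162 after HNRNPC KD and 54.6 after double KD, against 125, 49.8 and 52.4 at the distal site.

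Of the 103 genes in the list of kinases and phosphatases 3 were called (2.91%), FGFR1, PRKAR2A and PPP1R37, an inhibitor of protein phosphatase 1. The symbols of this list do not include DSTYK or the kinase EIF2AK2, both called. Of 112 genes of ubiquitin and the proteasome 3 were called (2.68%), the ligases RNF149 and RNF213 (1.22) positive and TRIM56 (−0.810, SE 0.283, p 0.00417) negative. At TRIM56 the proximal share was 53.3% in control, 48.2% after HNRNPC KD, 42.8% after PABPC4 KD and 29.3% after double KD. Of 62 chromatin regulators 2 were called, the Polycomb protein CBX6 (0.515, SE 0.157, p 0.00105) and the histone demethylase KDM4B (−0.746). Of the 99 genes in the membrane trafficking list 1 was called, the SNARE protein SNAP29 (−1.22, SE 0.354, p 0.000554). The symbols of that list do not include GOSR1 or RABIF, called genes named further below. None of 33 genes of mitochondrial respiration, import and ribosome was called by the upper bound, a list that does not cover all mitochondrial genes. None of 41 small GTPase and G-protein, 46 cell cycle and 39 long non-coding RNA genes was called by it either. The smallest p in these lists were those of TIMM8A (−2.34, p 0.0105), RAP1A (−1.45, p 0.0945), CCNB1 (−1.06, p 0.0128) and AC004477.1 (3.09, p 0.0176). By the reconstructed error, which passed 3.16% of all solved pairs, the lists with the most calls were the cytoskeleton (7 of 54 solved pairs), ubiquitin (5 of 134), splicing (4 of 83) and trafficking (4 of 110). Kinases and carriers had 3 each (of 81 and 57), long non-coding genes 2 (of 18) and zinc fingers 1 (of 75), and the other 11 lists had 0. Counts per list were small, so the shares describe these lists and are not set apart from the 2.50% of all genes.

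PABPC4 depletion was also measured in cells without a guide against HNRNPC, by the PABPC4 KD table, whose libraries the difference does not use. Its name mixes both targets, and it was taken as PABPC4 KD because the other tables are named for HNRNPC KD and double KD. At the shared pairs, 43 of 4692 passed p 0.01 there (0.916%) by the deposited p. The difference had 73 called pairs among these, by an error that is too wide, so the counts are not on the same footing. Of 73 called pairs with a PABPC4 KD value, 50 had the same sign in both (68.5%, Wilson interval 57.1 to 78.0%), 34 of 49 negative and 16 of 24 positive. The interval counts pairs as independent. Over all pairs the share was 50.02%, but the called pairs came mostly from well-read sites. A share over equally well-read pairs was not taken. Among pairs called by the error from reconstructed reads, 41 of 75 had the same sign, a share below the Wilson interval just given. The values in PABPC4 KD were smaller in 73 of the 73, a direction that the choice of pairs by the difference favours. Their median in PABPC4 KD was −0.0965 where the difference was negative (median −1.09) and 0.116 where it was positive (median 1.23). Pairs past p 0.01 in both numbered 7, which is 9.59% of the called pairs and 16.3% of the 43, and each had the same sign in both. They are PDLIM5 (−0.450 in PABPC4 KD), KIAA0319L (−0.336), PLEKHB2 (−0.405), BTN3A2 (−0.767), a butyrophilin of the immune system, and TSPAN3 (0.257), PPIAL4G (0.428) and ISY1 (0.785).

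The effect of PABPC4 depletion in HNRNPC-depleted cells minus that in control cells was then tested. At p 0.01, 49 of 4692 pairs passed (1.04%), 32 negative and 17 positive, where 46.9 would pass with exact p-values and no difference. The error summed the variances of all comparisons used and counted control noise more often than it enters. It is therefore too wide, the p-values are not exact, and 46.9 is no matched benchmark for the 49. Of the 49, 34 were also called in the difference. At an adjusted p of 0.05, 3 passed (0.0639%), TSPAN3 (0.984), ECE1 (−0.711) and DPP9 (−1.36). PDLIM5 differed by −1.24 (adjusted p 0.0746). LNPK had opposite signs, −0.977 in PABPC4 KD and 1.78 in HNRNPC-depleted cells (adjusted p 0.0542). Its logAPAR was −1.10 in HNRNPC KD and 0.680 in double KD, so the 1.78 lay more in HNRNPC KD. The −0.977 rests on 7.94 proximal reads in PABPC4 KD, too few for a firm value. For PLEKHB2 and BTN3A2 the effects in both backgrounds lay closer together, at −0.405 and −0.619 (p 0.397) and at −0.767 and −1.09 (p 0.457).

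**Figure D4:**
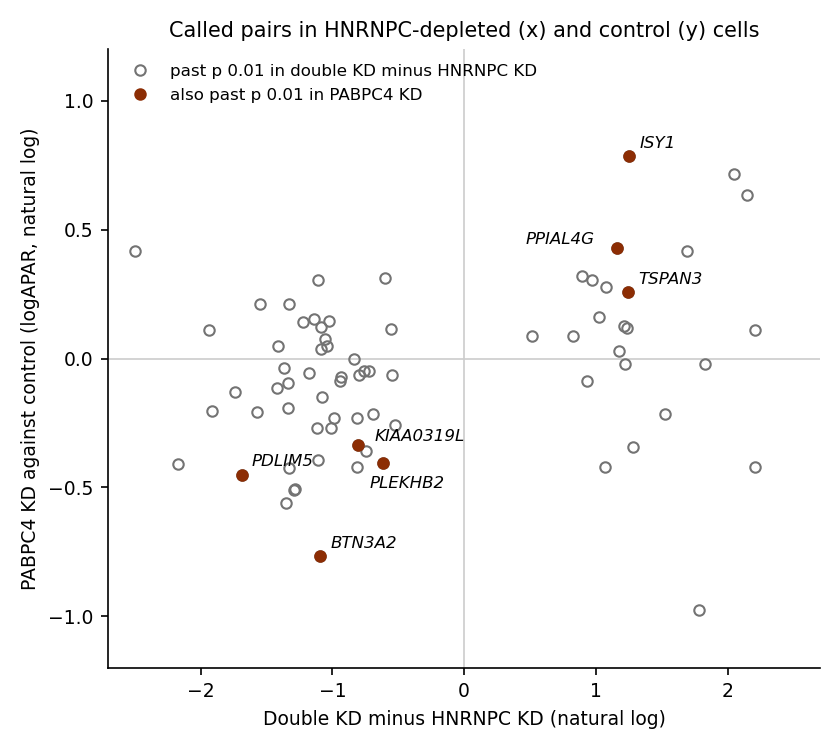
Each point is 1 of 73 pairs past p 0.01 in double KD minus HNRNPC KD (x axis), with its logAPAR in PABPC4 KD against control (y axis), both natural log; filled points also passed p 0.01 in PABPC4 KD. The 7 filled points lie in the quadrants of equal sign, and all 73 points lie nearer to 0 on the y axis than on the x axis.

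Other genes that the study singles out were not called. PABPN1, the nuclear poly(A)-binding protein, had a difference of 0.182 (SE 0.159, p 0.252) between ends 829 nt apart, with an interval of −0.130 to 0.494. PGK1, a glycolytic kinase, had 0.0648 (SE 0.712, p 0.928), and its interval of −1.33 to 1.46 was wide. KAT14 and TXNRD1 were not listed. The called pairs not named so far include NAIF1 (−1.41), ZFAND3 (−1.33), C5orf24 (−0.526), OGFOD3 (−1.08), GOSR1 (−1.55), P3H4 (−1.09), KIAA2013 (−0.556), TMPO (−1.28), GNE (−1.06), DESI1 (−0.598), MAGT1 (−0.794), TFDP2 (−2.50), PRR11 (−1.11), FLRT2 (−1.33), MLLT6 (−1.18), ENTPD4 (−0.833) and AC093012.1 (−1.74) among shifts to the distal site. TACC1 had 2 called pairs with 1 distal end in common (−0.931 and −1.11). In HNRNPC KD and double KD, logAPAR was 0.208 and −0.723 for the first and 0.926 and −0.181 for the second. Shifts to the proximal site were TMEM192 (1.29), ROBO4 (1.24), POLR2J2 (1.53), CLPB (2.21) and RABIF (2.05). For ROBO4 logAPAR was −1.17 in HNRNPC KD and 0.0656 in double KD, so its difference lay mostly in HNRNPC KD. Over called pairs with a PABPC4 KD value, the median logAPAR of negative ones was −0.0386 in HNRNPC KD and −1.16 in double KD. For positive ones these medians were −0.0223 and 1.28. POLR2J2 and METTL2A have close copies, so their reads are uncertain.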

How the data were processed

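RNA 3′ ends of 8 MDA-MB-231 samples, 2 per group by their titles, were sequenced as QuantSeq REV single-end reads. Per the study's methods, the authors quantified sites with Salmon 0.14.1 against distinct transcript ends of Gencode release 33, normalised them and fitted all pairs of sites by multinomial logistic regression (APAlog). The submitters' processing notes also name UMI-tools and hg38. The deposited values are logAPAR on the natural log scale, and the deposited p-value column holds the authors' test of each KD against control. The values belong to the authors' own comparisons and were used because the difference is defined on them; the corrected p-values beside them were not used. No column gives a library. The table assigned to PABPC4 KD carries a mixed name and was assigned by elimination.

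Standard errors were recovered from logAPAR and p. The difference took the root of the summed variances as its error (upper bound) and a Wald p, with Benjamini-Hochberg adjustment over 5170 pairs (Python 3, numpy, scipy, pandas). Counting error is the only error in it. Where 3 or more sites were listed, reads per site were solved from both tables with a relative misfit under 0.001 (622 of 768 genes); natural log gave the smaller misfit at 98.2% of genes over log2, and 98.8% of control reads lay within 1% of those solved from the PABPC4 KD and double KD tables. The steps were tested on simulated data. Sites named by transcript were placed on Gencode release 44 (3219 of 3653). The sequences of some sites are not reported here. Of 3037 position-named sites, 375 lay in their gene on hg38; their build is another one, is not named, and was not converted.

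The members, gene lists and tests were chosen with earlier results of these data known, and the Alu letters and the A-rich window on both sides of an end after the sequences were seen. Named genes were up to 12 per direction by smallest p, 6 genes of the study, up to 4 called members per list (otherwise the smallest p), pairs called in both backgrounds, and pairs whose effect differed between backgrounds at an adjusted p of 0.05; others were chosen after their values were seen. Alternatives were other pairs, limits on values and errors, other errors and other thresholds.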

Additional observations from a re-analysis of the deposited data

Results flagged for a closer look

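The effect of PABPC4 depletion differed between HNRNPC-depleted and control cells past an adjusted p of 0.05 at 3 of 4692 pairs, which singled them out. TSPAN3 shifted by 0.984 more toward the proximal site in HNRNPC-depleted cells (upper-bound p 2.97e-09, adjusted p 1.40e-05), from 0.257 in control cells to 1.24. ECE1 shifted by −0.711 further toward the distal site (p 1.42e-05, adjusted p 0.0299), from −0.0496 to −0.760. DPP9 shifted by −1.36 further toward the distal site (p 1.91e-05, adjusted p 0.0299), from −0.206 to −1.57. TSPAN3 and ECE1 hold the letters AGCCTGGG or AGCCTGAG at the site that lost usage, whereas the proximal site of DPP9 could not be placed. Control and PABPC4 KD libraries enter these differences beside the double KD and HNRNPC KD libraries, and the part of a single deviating library was not tested, since no value per library was used.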

How the results depend on the processing

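No paired analysis was possible because only pooled comparisons, without values per library, were at hand; for the same reason no replicate was left out. The 74 called pairs became 44 when each gene was reduced to its outermost sites, 188 with the control taken as 1 part in 2 of the variance, 22 at an adjusted p of 0.05 and 32 at p 0.001, the last 2 by construction. The share of negative differences among called pairs stayed within its interval in each of these settings and in the others listed among the methods (59.1% to 67.1%), and the median difference stayed negative (−0.0425 to −0.0222). The count with the same sign in PABPC4 KD was 33 of 43 for the outermost sites, 106 of 184 with the control as 1 part in 2 of the variance, 18 of 22 at an adjusted p of 0.05, 23 of 32 at p 0.001 and 41 of 75 with the reconstructed error. As shares, 18 of 22 lay above and 41 of 75 below the Wilson interval of the main share. Without pairs that hold the Alu letters, an alternative added after the data were seen, 54 pairs were called, 68.5% of them negative, and 33 of 53 had the same sign in PABPC4 KD. For the difference between backgrounds, 49 pairs became 3 at an adjusted p of 0.05. Of the named pairs, 48 of 52 kept their side of p 0.01 with the control as 1 part in 2 of the variance; TIMM8A, CCNB1, AC004477.1 and BTG1 passed it there, with p of 0.000293 to 0.000910. The cause of these changes was not tested. Low reads set the limits: the median error could show only shifts of 2.72 or more.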
